A study of Arabidopsis thaliana with 6 samples.

Results

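Plant cells sense peptides, wall fragments and microbes at their surface largely through receptor-like kinases and receptor-like proteins. A total of 8 genes of these families were followed in *gis5* and WT Arabidopsis seedlings: the cysteine-rich receptor-like kinases *CRK10*, *CRK21*, *CRK22*, *CRK25* and *CRK30*, and the receptor-like proteins *RLP12*, *RLP30* and *RLP57*. They are all the genes of a naming rule that could be named on the array here. The rule asked for a single annotated symbol of CRK, RLP, RLK, WAKL or LECRK followed by a digit or a hyphen. *WAK1* was left out. The gene table of assembly TAIR10.1 lists 106 genes with such symbols, 40 of them CRK and 54 RLP, so that 98 were not analysed here. On the array, 7879 probe sets had no name here and 503 matched several genes, and genes of these families may be among them. No RLK, WAKL or LECRK gene was among the 8. Each of the 8 genes had 1 named probe set.

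The *gis5* seedlings carry an EMS-induced point mutation in *POLD1*, which encodes the catalytic subunit of the replicative DNA polymerase δ, and had been backcrossed to WT 4 times. The WT seedlings were Columbia, which the labels also give as the cultivar of *gis5*. Whole seedlings, leaves with roots, were harvested at 10 days of growth on plates in continuous light, at 24°C by the methods and at 23°C by the series' design text, and 3 biological replicates of each genotype were hybridised to Affymetrix ATH1 arrays, 1 array each. A whole seedling is a mixture of cell types, so that fewer cells of a type and less RNA per cell cannot be told apart in any value below.

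CRKs have an extracellular part with DUF26 domains, which are rich in cysteines, a single membrane span and an intracellular kinase. Many *CRK* genes respond to pathogens, salicylic acid and reactive oxygen species. RLPs have an extracellular part of leucine-rich repeats and a membrane span but no kinase of their own, and several of them signal through the adaptor kinase SOBIR1 and the co-receptor BAK1.

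One property of the naming bears on every count below. The annotation of the array named none of the 8 probe sets, and all 8 were named through the readable part of a supplementary table of the study, 1996 rows ordered by the size of the difference between the genotypes on these arrays. Of the 851 probe sets named by that route alone, 30.8% had an unadjusted p under 0.05 and a higher signal in *gis5*, 14.0% had a lower one, and the median log2 ratio was 0.35. Of the 13513 named by the array's annotation, 5.77% and 2.97% did so, with a median of 0.03. The 8 genes were therefore already singled out by the contrast described here. Their number and directions are a description, and nothing was read from them about the receptor families.

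Levels are linear MAS5 signals as deposited, and differences are log2 ratios of *gis5* over WT of (signal + 16), which understate the change of dim probe sets. They were fitted with limma over all 22746 probe sets that are not Affymetrix controls, and p-values were adjusted by Benjamini-Hochberg over all of them. The number of arrays limits the precision. Correlations between arrays lay between 0.958 and 0.974 on the log2 scale, and array medians were 185 to 191 in *gis5*, against 174 to 182 in WT.

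None of the 8 genes differed between *gis5* and WT at an adjusted p under 0.05. Their adjusted p-values in limma lay between 0.307 and 0.891, against 0.0044% of all probe sets called higher in *gis5* and 0% called lower at that threshold. At an unadjusted p under 0.05, *CRK30* and *RLP30* were higher in *gis5* and no gene was lower, where 5.99% of all probe sets were called higher and 3.06% lower. With the arrays centred on their medians, or quantile normalized, the split was 2 higher and 2 lower, the lower ones being *CRK21* and *CRK22*. None of the 8 passed the thresholds of the methods, an unadjusted p under 0.05 with a log2 ratio of 1 or more in either direction, which 1.38% of probe sets passed upward and 0.541% downward. All *gis5* arrays were above all WT arrays for 4 genes (*CRK10*, *CRK30*, *RLP12* and *RLP30*), as for 9.13% of all probe sets, and below for 2 (*CRK21* and *CRK22*), as for 6.79%. The median log2 ratio was 0.33 over the 8 genes and 0.03 over all probe sets.

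**Figure D1:**
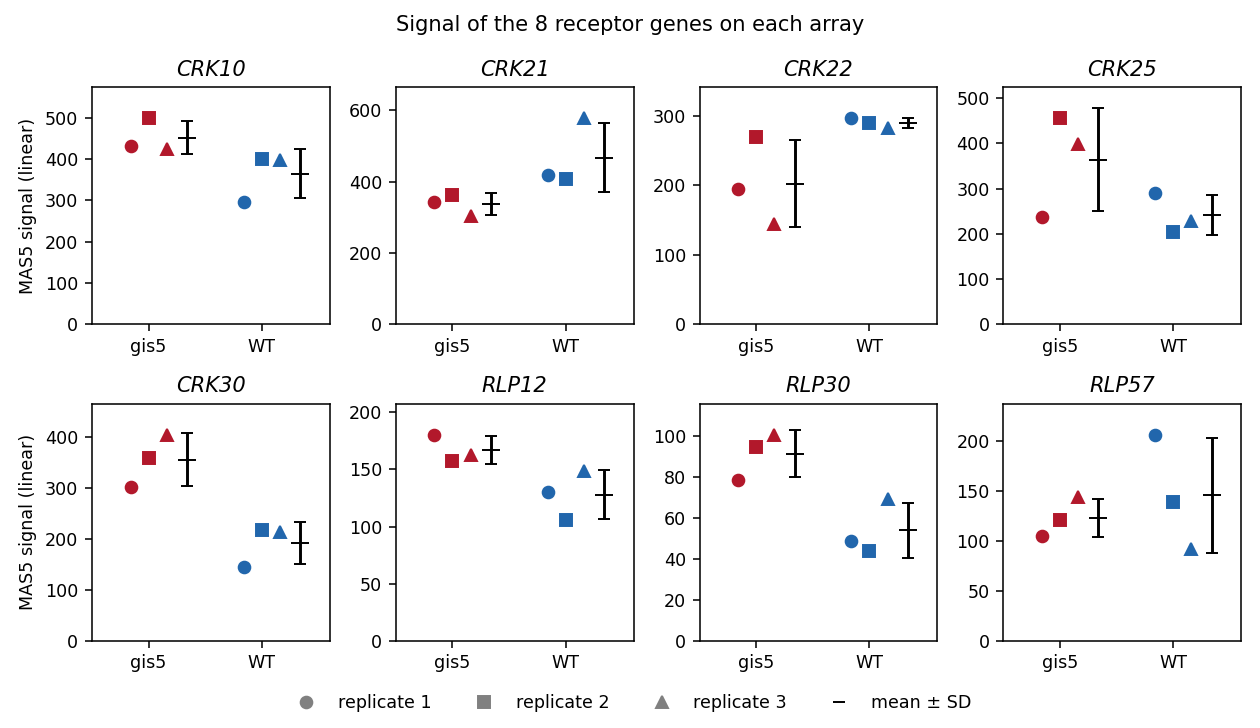
Linear MAS5 signal of the 8 genes on each of the 6 arrays, *gis5* (red) left of WT (blue), with 1 symbol shape for each replicate number and the mean ± SD of 3 arrays beside the points. The 3 *gis5* points of *CRK30* lie between 302.3 and 405 and the 3 WT points between 146 and 217, whereas the points of *CRK25* and *RLP57* overlap.

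*CRK30* (AT4G11460) had the smallest p of the 8 genes. It gave 302.3, 360.3 and 405 in *gis5*, against 146, 217 and 214 in WT. All 3 *gis5* arrays were above all 3 WT arrays, and WT replicate 1 was the dimmest of its genotype. The means were 356 ± 51.7 in *gis5* and 193 ± 40.5 in WT (SD, n = 3 each), a log2 ratio of 0.85 (SE 0.21, 95% interval 0.35 to 1.34). Of all 22746 probe sets, this one ranked 976th by the size of the log2 ratio, and its adjusted p in limma was 0.307. Without WT replicate 1 the log2 ratio was 0.67, the lowest value of any alternative.

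*CRK10* (AT4G23180), also known as *RLK4*, had signals of 432, 498 and 425 in *gis5* and of 297, 399 and 398 in WT. The genotypes did not overlap, but the gap was narrow: the dimmest *gis5* array stood just above the brighter WT arrays, and WT replicate 1 was again the dimmest array. The means were 452 ± 40.5 in *gis5* and 365 ± 58.5 in WT (SD, n = 3 each). The log2 ratio of 0.31 (SE 0.18, adjusted p in limma 0.658) was 0.17 when WT replicate 1 was left out.

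*CRK21* (AT4G23290) had signals of 344, 363 and 303 in *gis5* and of 418, 406 and 577 in WT. No *gis5* array reached the WT arrays, and WT replicate 3 was well above the other two. The means were 337 ± 30.8 in *gis5* and 467 ± 95.6 in WT (SD, n = 3 each), a log2 ratio of −0.44 (SE 0.19, adjusted p in limma 0.56). Without WT replicate 3 the log2 ratio was −0.28.

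*CRK22* (AT4G23300), the gene next to *CRK21*, had signals of 195, 269 and 144 in *gis5* and of 297, 291 and 282 in WT. The WT arrays were close to each other and above all 3 *gis5* arrays, which spread widely. The means were 203 ± 62.9 in *gis5* and 290 ± 7.28 in WT (SD, n = 3 each), a log2 ratio of −0.52 (SE 0.23, adjusted p in limma 0.569). It ranged from −0.73 without *gis5* replicate 2 to −0.32 without *gis5* replicate 3.

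*CRK25* (AT4G05200) had signals of 238, 456 and 399 in *gis5* and of 291, 205 and 229 in WT. Replicates 2 and 3 of *gis5* were above all WT arrays, and replicate 1 of *gis5* lay among them, below WT replicate 1. The means were 364 ± 113 in *gis5* and 242 ± 44.5 in WT (SD, n = 3 each), a log2 ratio of 0.53 (SE 0.27, adjusted p in limma 0.622). The ratio was 0.79 without *gis5* replicate 1 and 0.35 without *gis5* replicate 2.

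The same 2 *gis5* arrays that were bright for *CRK25* also had more signal of seed genes. The summed signal of 3 of the 6 seed markers looked for, *CRA1*, *CRC* and *OLEO2*, reached 168, 1210 and 662 in *gis5*, against 178, 209 and 175 in WT. *CRA1*, a seed storage globulin, was near 0 on *gis5* replicate 1 (2.29), at 540.3 and 180 on the other two, and at 8.51, 21.0 and 8.14 in WT. The part of this difference in the *CRK25* values was not tested.

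The *CRK* genes lie mostly on chromosome 4 in runs of neighbours, as is known of this family. *CRK10*, *CRK21* and *CRK22* belong to a run from *CRK5* to *CRK24* that holds 18 genes of these families within 23 genes of the gene table, with 13 genes between *CRK10* and *CRK21* and 0 between *CRK21* and *CRK22*. *CRK30* is at one end of another run of 5 such genes within 9, up to *CRK34*, and *CRK25* has no such gene within 10 genes on either side. Close paralogs can bind to each other's probes. None of the 8 probe sets has a name ending in _s_at or _x_at, by which Affymetrix marks probes shared between transcripts, but binding of transcripts of the neighbouring genes was not tested.

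Within the longer run the log2 ratio was positive for *CRK10* and negative for *CRK21* and *CRK22*, none of them past the adjusted threshold. The difference between *CRK10* and *CRK21* in log2(signal + 16) within an array came to 0.32, 0.44 and 0.47 in *gis5*, against −0.47, −0.02 and −0.52 in WT. These differences did not overlap between the genotypes, and their means were 0.41 ± 0.08 in *gis5* and −0.34 ± 0.27 in WT (SD, n = 3 each). The single signals require this, since all *gis5* arrays were above WT for *CRK10* and below WT for *CRK21*. Between *CRK10* and *CRK22*, the difference came to 1.09, 0.85 and 1.46 in *gis5*, against 0.0017, 0.44 and 0.47 in WT, again with no overlap and for the same reason. Between the adjacent *CRK21* and *CRK22* it came to 0.77, 0.41 and 0.99 in *gis5*, against 0.47, 0.46 and 0.99 in WT, so that the genotypes overlapped and their means were 0.08 apart. Array scaling cancels in such differences only approximately, since 16 was added to each signal. Only their change between genotypes has a meaning, since different probes bind with different strength. *CRK30*, outside this run, gave the same picture. Its difference from *CRK21* averaged 0.07 in *gis5* and −1.21 in WT, and that from *CRK22* averaged 0.80 and −0.57. Neither overlapped between the genotypes, as the single signals again require, so that nothing about the run was read from these pairs. The pairs were chosen after the signals had been seen and were not tested.

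**Figure D2:**
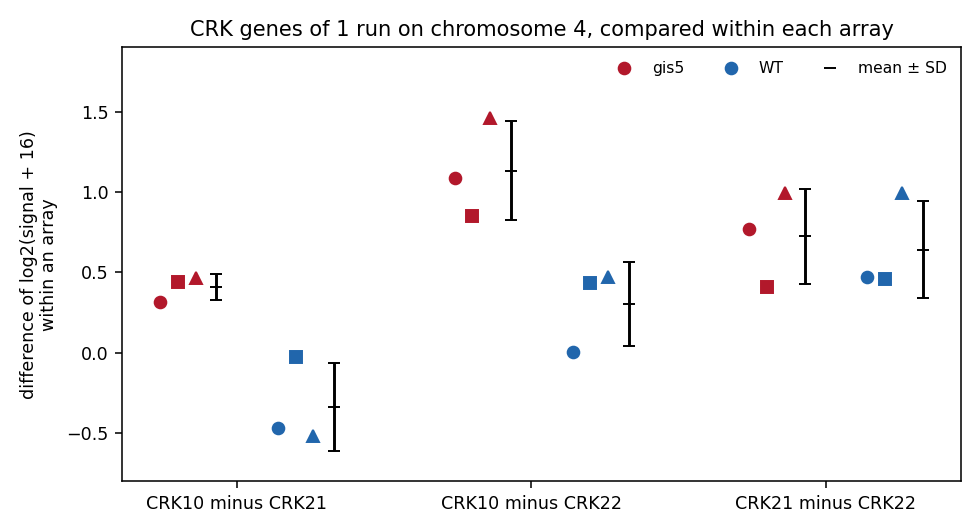
Difference in log2(signal + 16) between 2 *CRK* genes within the same array, for 3 pairs of genes, *gis5* (red) left of WT (blue), 1 symbol shape for each replicate number (circle 1, square 2, triangle 3), with the mean ± SD of 3 arrays. For *CRK10* minus *CRK21* the *gis5* arrays lie between 0.32 and 0.47 and the WT arrays between −0.52 and −0.02, while for *CRK21* minus *CRK22* the genotypes overlap. The separation of the pairs with *CRK10* follows from the signals of the single genes.

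*RLP30* (AT3G05360) is needed, together with SOBIR1, for the response to an elicitor of the fungus *Sclerotinia sclerotiorum*. It gave signals of 78.5, 94.6 and 100.7 in *gis5*, against 48.8, 44.0 and 69.2 in WT. All 3 *gis5* arrays were above all 3 WT arrays. The means were 91.3 ± 11.5 in *gis5* and 54.0 ± 13.4 in WT (SD, n = 3 each), a log2 ratio of 0.63 (SE 0.19, 95% interval 0.17 to 1.08, adjusted p in limma 0.432). The unadjusted p was 0.0145, and it was 0.0507 without *gis5* replicate 3, 0.0509 without WT replicate 2 and 0.0549 with a trended and robust variance.

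*RLP12* (AT1G71400) is related to CLAVATA2, a receptor-like protein of the shoot meristem. It gave signals of 180.5, 158 and 163 in *gis5*, against 131, 105 and 148 in WT, with the genotypes apart by a small margin. The means were 167 ± 11.9 in *gis5* and 128 ± 21.5 in WT (SD, n = 3 each), a log2 ratio of 0.35 (SE 0.17, adjusted p in limma 0.601).

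*RLP57* (AT5G65830) had signals of 105, 121 and 144 in *gis5* and of 207, 139 and 91.9 in WT. The WT arrays spread over more than the whole range of the *gis5* arrays. The log2 ratio of −0.17 (SE 0.28, 95% interval −0.84 to 0.51, adjusted p in limma 0.891) became 0.093 without WT replicate 1, so that *RLP57* had no settled direction. The 3 *RLP* genes lie on chromosomes 1 (*RLP12*, beside *RLP11*), 3 (*RLP30*, within 4 genes of the gene table that also hold *RLP31*) and 5 (*RLP57*, with no such gene near).

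Within a genotype the 8 genes did not follow 1 array. Replicate 2 was the brightest *gis5* array for 4 genes, replicate 3 for 3 and replicate 1 for 1. Among the WT arrays, replicate 2 was the dimmest for 4 genes, and replicates 1 and 3 for 2 each. WT replicate 1 was the dimmest WT array for *CRK10* and *CRK30* and the brightest for *CRK22*, *CRK25* and *RLP57*. It also had the lowest 3′ to 5′ ratio of actin, which reflects RNA integrity. These ratios stood at 4.54, 4.99 and 4.39 in *gis5* and 3.30, 5.29 and 6.42 in WT. The part of RNA integrity in these signals was not tested.

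The seedlings' labelled tissue was checked with its markers. The leaf gene *RCA* (Rubisco activase) had signals of 38346, 35313 and 34517 in *gis5* and of 43821, 39850 and 43070 in WT, and it was the only 1 of 7 leaf markers measured under a name. The summed signal of 2 of 10 root markers, *EXPA7* and *IRT1*, was 1042 to 1362 in *gis5* and 826 to 1009 in WT. That of 5 of 7 flower genes, *SEP3* among them, was 1100 to 1562 in *gis5* and 176 to 239 in WT. Both sums were apart between the genotypes, in the same direction as *CRK10*, *CRK30*, *RLP12* and *RLP30*. *RCA*, whose signal was at percentile 99.99 of all probe sets, was apart in the direction of *CRK21* and *CRK22*. Of all probe sets, 9.13% were apart with *gis5* higher and 6.79% with *gis5* lower. Most of the root sum was *IRT1*, at 889, 1073 and 1198 in *gis5* and 834, 766 and 814 in WT. Markers were named by the same routes as all probe sets, and the study's table favoured genes that differ. The log2 ratio of *RCA* was −0.23 (adjusted p in limma 0.679). Within the sums, *EXPA7* and the flower gene *PI* overlapped between the genotypes, while *IRT1* and *SEP3* did not. The study describes *SEP3* expression in *gis5* as ectopic, so that the flower sum need not reflect flower tissue. The part of tissue composition in the receptor values was not tested.

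Receptors of these families act through shared partners, and a list of 42 genes of receptor signalling was read from the same fit: co-receptors and immune receptors, cytoplasmic and MAP kinases, oxidases, ubiquitin ligases, early target genes, wall-associated kinases and growth receptors. Of these, 10 were measured under a name and 32 were not analysed. None passed an adjusted p under 0.05, and 3 had an unadjusted p under 0.05, all higher in *gis5* (*WAK2*, *WRKY33* and *CPK6*), where 5.99% of all probe sets were called higher. All 3 were named through the study's table, and of the probe sets named by that route alone 30.8% were called higher. None of the 3 kept an unadjusted p under 0.05 without *gis5* replicate 2 (0.0696 for *WAK2*, 0.0683 for *WRKY33* and 0.0955 for *CPK6*) or without WT replicate 2 (0.066 for *WAK2*, 0.0535 for *WRKY33* and 0.131 for *CPK6*). *WAK2* kept it in 10 of 13 alternatives, *WRKY33* in 10 of 14 and *CPK6* in 7 of 14. The log2 ratio was positive for 7 genes and negative for 3, with a median of 0.18. This median mixes 0.04 for the 5 genes named by the array's annotation with 0.51 for the 5 named through the study's table. The median over all probe sets was 0.03.

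The 5 genes of this list that the array's annotation named all overlapped between the genotypes. *FER*, the FERONIA receptor kinase for RALF peptides, had signals of 1479, 1499 and 1401 in *gis5* and of 1362, 1674 and 1689 in WT, with WT replicate 1 the dimmest of all (log2 ratio −0.10, SE 0.16, adjusted p in limma 0.877). *BIK1*, a cytoplasmic kinase that relays signals from immune receptors, had a log2 ratio of 0.09, the wall-sensing receptor kinase *THE1* one of −0.07 and the immune transcription factor gene *WRKY22* one of 0.04. *EFR*, the receptor gene for bacterial EF-Tu, was dim, with signals of 18.3, 44.6 and 5.07 in *gis5* and of 14.4, 28.9 and 1.99 in WT, close to the 16 added before the logarithm, so that its log2 ratio of 0.28 (SE 0.47) understates any change more than those of brighter genes. The adjusted p-values of these 4 genes in limma ran from 0.891 to 0.975.

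The other 5 genes were named through the study's table, like the 8 receptors, and the genotypes were apart for all of them, 4 higher and 1 lower in *gis5*, as for 9.13% and 6.79% of all probe sets. That table is ordered by this same contrast, so that the naming favoured such genes and these shares are no fitting background for them. *SOBIR1*, whose kinase serves *RLP30* and other RLPs, had signals of 759, 728 and 753 in *gis5* and of 360, 619 and 614 in WT. The *gis5* arrays lay close together, and WT replicate 1 was far below the other two. The means were 747 ± 16.4 in *gis5* and 531 ± 148 in WT (SD, n = 3 each), a log2 ratio of 0.52 (SE 0.24, adjusted p in limma 0.575) that was 0.27 without WT replicate 1.

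*WAK2*, which encodes a wall-associated kinase that binds pectin, had signals of 164, 203 and 174 in *gis5* and of 120, 111 and 140 in WT (log2 ratio 0.49, SE 0.16, adjusted p in limma 0.459). *WRKY33*, a transcription factor gene of defence against necrotrophic fungi, had signals of 357, 355 and 274 in *gis5* and of 243, 222 and 211 in WT (log2 ratio 0.51, SE 0.17, adjusted p in limma 0.461). In both, the dimmest *gis5* array was above the brightest WT array. *CPK6*, a calcium-dependent protein kinase gene, had signals of 209.6, 242 and 261 in *gis5* and of 151, 124 and 209.4 in WT. Its genotypes were apart only by the margin between *gis5* replicate 1 and WT replicate 3 (log2 ratio 0.54, SE 0.21, adjusted p in limma 0.532). *MPK4*, a MAP kinase gene whose loss activates defence, had signals of 966, 1072 and 1056 in *gis5* and of 1537, 1454 and 1073 in WT. It was the 1 gene of the list with all *gis5* arrays below all WT arrays, the closest pair being 1072 in *gis5* and 1073 in WT (log2 ratio −0.37, SE 0.18, adjusted p in limma 0.609).

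**Figure D3:**
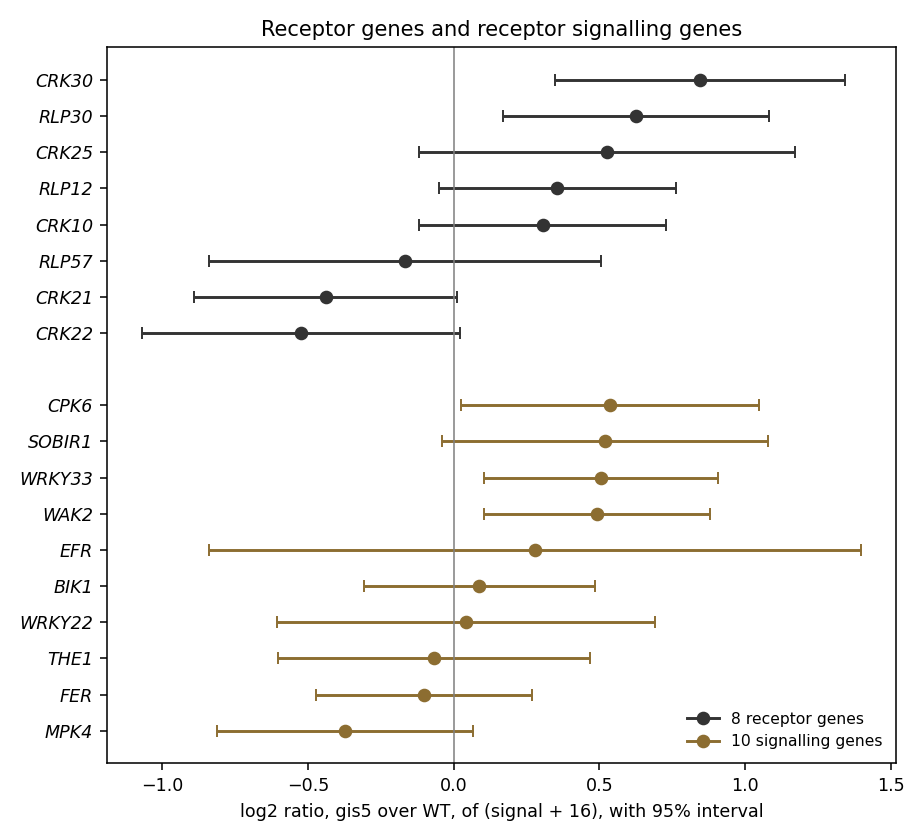
Log2 ratio of *gis5* over WT of (signal + 16), on the horizontal axis, with its 95% interval from limma (3 arrays of each genotype), for the 8 receptor genes (dark) and the 10 measured genes of receptor signalling (brown). The intervals of *CRK30*, *RLP30*, *CPK6*, *WRKY33* and *WAK2* lie above 0, and all others include 0.

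The direction of each gene was followed over the alternatives. *CRK30* kept a log2 ratio between 0.67 and 0.95 and an unadjusted p under 0.05 in all 14 alternatives. *RLP30* kept one between 0.40 and 0.78, *CRK25* between 0.35 and 0.79, *RLP12* between 0.24 and 0.455 and *CRK10* between 0.17 and 0.37. *CRK21* stayed between −0.53 and −0.28 and *CRK22* between −0.73 and −0.32. Of the 8 genes, 7 kept their sign and 1, *RLP57*, did not. When the test was limited to probe sets brighter than the median signal, which leaves the 5 *CRK* genes, the adjusted p of *CRK30* in limma was 0.0447, and over all its alternatives it ranged from 0.0447 to 0.631.

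**Figure D4:**
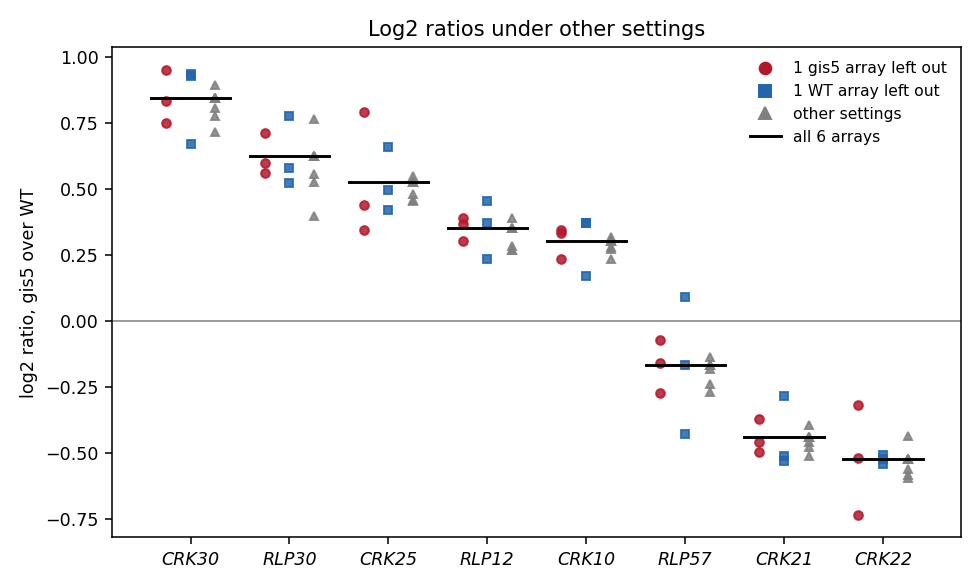
Log2 ratio of *gis5* over WT, on the vertical axis, of each of the 8 genes with 1 *gis5* array left out (red), 1 WT array left out (blue) or another setting changed (grey), and with all 6 arrays (black line). The points of 7 genes stay on 1 side of 0, and those of *RLP57* lie on both sides, up to 0.093 without WT replicate 1.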

How the data were processed

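ATH1 arrays of 3 *gis5* and 3 WT samples were analysed. The authors deposited 1 table of intensities, linear and not logged, with a column for each array, for which the processing notes name MAS5, without a version. The raw array files and the RMA values of the study were not used, nor were the differences and p-values in its supplementary table, which was read for gene names only. Of 22810 probe sets, 64 are Affymetrix controls and were dropped. For the rest, limma 3.58.1 (lmFit, eBayes; R 4.3.3) was run on log2(signal + 16) with a term for genotype alone. The fit was tested on simulated data, with changes in bright probe sets only that were larger than those of the receptor genes. That test does not cover changes of their size. Deviations of arrays with the same replicate number had correlations of −0.06, −0.00028 and −0.04, so that the numbers were not taken to pair the arrays.

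Probe sets were named through the array's annotation, else the supplementary table, and loci through the TAIR10.1 gene table. Another 503 probe sets matched several genes and 7879 had no name here. Members and lists were chosen with earlier results of these data known. The text names all 8 members and, of the signalling list, all 10 measured genes, the 6 with the smallest p with their signals. Alternatives were array centring, quantile normalization, pseudocounts of 1 and 64, removal of probe sets at or under the median signal, removal of names ending in _s_at or _x_at, a trended and robust variance, the replicate block and leaving out each array in turn. No sequences or coordinates were used.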

Additional observations from a re-analysis of the deposited data

How the results depend on the processing

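Over the 14 alternatives, the number of the 8 genes at an unadjusted p under 0.05 and higher in *gis5*, 2 with all arrays, was 2 under every alternative that kept all arrays (*CRK25* in place of *RLP30* among probe sets above the median signal and with a trended and robust variance), and it lay between 1 and 3 when 1 array was left out, with 1 without *gis5* replicate 3 and 1 without WT replicate 2. The number lower in *gis5*, 0 with all arrays, was 2 (*CRK21* and *CRK22*) with the arrays centred on their medians, with quantile normalization, with a pseudocount of 64, among probe sets above the median signal and with a trended and robust variance, and between 0 and 1 when 1 array was left out (1 without *gis5* replicate 2). Centring shifted the median log2 ratio of all probe sets by −0.07. Among probe sets above the median signal, 1 gene had an adjusted p under 0.05, *CRK30* (log2 ratio 0.85, adjusted p in limma 0.0447). There, fewer probe sets were tested and its SE was 0.18, against 0.21 over all probe sets. The log2 ratio of *RLP57* changed sign: it ran from −0.43 (without WT replicate 3) to 0.093 (without WT replicate 1) when 1 array was left out. No gene passed the thresholds of the methods in any alternative, and the median log2 ratio of the genes lay between 0.26 and 0.41. The genotypes were apart for 6 or 7 genes wherever all 8 were tested, the 7 being without *gis5* replicate 1 and without WT replicate 1. Among probe sets above the median signal they were apart for 4 of the 5 tested. With all arrays, 9.13% of all probe sets were apart upward and 6.79% downward, and these shares were not computed for the alternatives. Groups separate more easily with 1 array fewer, and the naming favoured such genes, so that these counts do not measure robustness. With the replicate block, 2 genes were called higher and 0 lower, as without it, the log2 ratio of *CRK30* was 0.85 (adjusted p in limma 0.465), and 1737 probe sets were called against 2059 without it. Naming by the array's annotation alone left no genes, and each gene had 1 named probe set, so that neither alternative for these choices was run. The number of arrays, 3 of each genotype, limits the precision of all values.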

Other observations

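A total of 3 receptor kinase genes outside both the naming rule and the signalling list were looked at after the values had been seen. *PERK9* and AT3G45390 came from a search of the gene table's descriptions for receptor kinases, and *WAK1* was added. All 3 were named through the study's table. *PERK9* (AT1G68690), a proline-rich, extensin-like receptor kinase gene, had signals of 69.5, 83.1 and 47.4 in *gis5* and of 18.1, 19.0 and 7.69 in WT. All *gis5* arrays were above all WT arrays, with a log2 ratio of 1.42 (SE 0.24, adjusted p in limma 0.159). AT3G45390, listed in the gene table as the L-type lectin receptor kinase I.2 but without a symbol of the rule, had signals of 11.7, 23.3 and 45.0 in *gis5* and of 81.0, 32.9 and 23.3 in WT, which overlapped (log2 ratio −0.50, SE 0.42, adjusted p in limma 0.762). *WAK1* (AT1G21250), a wall-associated kinase gene left out by the rule, averaged 142 ± 12.3 in *gis5* and 29.3 ± 4.53 in WT (SD, n = 3 each), a log2 ratio of 1.80 (SE 0.16, adjusted p in limma 0.0565).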
